A study of Homo sapiens with 6 samples.

Results

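The genes described here are 31 reported transcriptional targets of the YAP/TAZ-TEAD complex that lie outside the CCN family, measured in U251 cells after knockdown of TEAD3. They were chosen by name from reports on this pathway, when earlier results of these data were already known. Each of the 31 matched 1 of the 60612 Ensembl gene identifiers in the count table. After the filter on low counts 29 of the 31 were among the 17723 genes tested. The remaining members, GLI2 and SH2D4A, had too few counts to be tested.

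U251 is an established human glioma line. Polyadenylated RNA was sequenced from 3 samples with the genotype label Normal Control and 3 with the label TEAD3 Knockdown. The knockdown was transient, its protocol mentions a plasmid vector as well as an siRNA, and the efficiency check is placed at about 36 h. The labels leave out what the controls received, how completely the cells took up the reagent and whether the replicates were separate cultures, so the p-values reflect only library-to-library spread, part or all of which may be technical.

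TEAD proteins bind DNA at short sites with the core GGAATG and carry little activating power of their own. YAP1 and TAZ, which the Hippo kinases keep out of the nucleus, join them there and switch on genes for matrix proteins, growth factors, the cytoskeleton and cell adhesion, often from enhancers that also hold AP-1 sites. TEAD3 is 1 of 4 TEAD paralogs that recognise much the same DNA, and in glioma cells this pathway is known for its links to growth and invasion.

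RefSeq promoters (GRCh38.p14, 250 bases before to 50 after an annotated start) were at hand for 24 of the 31 genes, with 38 starts in all. GGAATG, searched on both strands (CATTCC on the other), stood in 7 of these 38 promoters, which is 18.4%, against 14.03% of all 35116 promoters. The AP-1 letters TGANTCA, which read the same on both strands and do not overlap GGAATG, stood in 4 of the 38 (10.5%), against 7.71% of all. Counted by gene, GGAATG was found in 7 of the 24 (29.2%), against 16.7% of all 27305 genes with a promoter. These were ANKRD1, CAVIN2, DDAH1, EDN1, FOXF2, NUAK2 and THBS1. TGANTCA was found in 4 of the 24 (16.7%), against 9.37% of all genes. These differences in share were not tested. The promoters of THBS1, ANKRD1 and FOXF2 are printed here because, of the genes with GGAATG, these 3 had an unadjusted edgeR p under 0.05 in the comparison. The capitals mark GGAATG and TGANTCA.
THBS1 promoter, chr15:39581003-39581068, plus strand: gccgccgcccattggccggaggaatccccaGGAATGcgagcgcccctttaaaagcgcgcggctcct
ANKRD1 promoter, chr10:90921276-90921337, minus strand: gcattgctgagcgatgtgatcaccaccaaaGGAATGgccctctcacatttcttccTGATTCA
ANKRD1 second site, chr10:90921198-90921227, minus strand: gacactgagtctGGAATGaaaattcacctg
FOXF2 promoter, chr6:1389350-1389415, plus strand: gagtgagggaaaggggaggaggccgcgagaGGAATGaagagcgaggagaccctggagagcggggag
In THBS1 the core began 46 bases before the RefSeq start, and in FOXF2 196 bases before it. ANKRD1 carried it at 220 and at 128 bases before the RefSeq start, with TGATTCA at 195. The ANKRD1 second site lies inside the first exon of the GENCODE 29 transcript, which starts at base 90921276, so it is upstream only by the RefSeq annotation. RND3, the single target gene called in the comparison, had neither motif in the windows of its 2 annotated starts, which says nothing of sites farther away.

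Library totals lay between 58344026 and 64808615 counts, at which 3 counts correspond to between 0.0457 and 0.0529 CPM, a floor for counting error only. CPM here means counts scaled to the library total after TMM normalisation, and values by library are listed in the order of replicates 1, 2 and 3. TEAD3 itself measured 14.9, 20.3 and 21.0 CPM across the controls against 4.70, 8.35 and 6.08 CPM across the knockdown libraries, without overlap (log2 fold change -1.55, edgeR's adjusted p = 0.0114). The edgeR call of TEAD3 was lost without control replicate 3 (adjusted p = 0.0541), without knockdown replicate 1 (0.0532) or 3 (0.0938), without the low-count filter (0.0639) and with the covariate for non-polyadenylated RNA (0.0575). Among glial and glioma markers VIM, CD44, NES and SOX2 were at or above 3433, 587.6, 160.7 and 114 CPM in every library. FABP7 lay between 1.89 and 4.72 CPM, and the astrocyte markers GFAP and S100B stayed at or below 1.80 and 0.686 CPM. Of the neuron markers SYT1 lay between 15.5 and 18.6 CPM and SNAP25 between 3.24 and 7.14 CPM, while RBFOX3 was at 0.123 CPM or less. Of the immune markers CD68 was at 123 CPM or more, CD3E was at 0 in every library and PTPRC did not exceed 0.122 CPM. Deviations from the gene means followed GC content most in control replicate 2, with a Spearman correlation across genes of 0.668. Control replicate 1 had -0.55, in the other direction, and the remaining libraries lay between -0.22 and 0.18. With transcript length the Spearman correlations were 0.293, -0.101 and 0.251 across the controls. Across the knockdown libraries they were -0.293, -0.106 and -0.036, so the length trend differed in part between the groups. The non-polyadenylated RMRP, RPPH1, RN7SK, RN7SL1 and RN7SL2 had a mean log2 CPM of 3.64 and 4.15 in knockdown replicates 1 and 3 and 3.26 in control replicate 2, against 2.05 to 2.22 in the other 3 libraries. In bulk RNA, fewer cells carrying a transcript and less transcript per cell cannot be told apart.

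A single target gene, RND3, was called as higher after the knockdown, and no target gene was called as lower. The other 28 of the 29 tested were not called by the edgeR quasi-likelihood test, in which a gene is called at a Benjamini-Hochberg adjusted p under 0.05 over all tested genes. Over all 17723 genes this test called 0.655%, with 0.451% higher and 0.203% lower in the knockdown. The fold changes of the target genes spread to both sides: 14 were above 0 and 15 below, with a median log2 fold change of -0.0018, beside -0.0012 over all tested genes. Before adjustment, a p under 0.05 was reached by 4 genes on the higher side (RND3, THBS1, PHLDB2 and ANKRD1) and 5 on the lower side (FSTL1, TNS3, CCDC80, ARHGEF17 and FOXF2), where 8.15% and 7.43% of all tested genes reached this. Control and knockdown values lay apart with no overlap for 8 of the 29, or 27.6%, 4 in each direction, and for 21.6% of all tested genes.

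The width of the intervals shows which changes the data could still hold. For 18 of the 29 tested genes the 95% interval of the fold change lay within 1.5-fold in both directions, and for 25 it lay within 2-fold. The genes whose interval reached past 2-fold were RND3 and the low-count EDN1, INHBA and CAVIN2. DESeq2, which called 4.92% of all genes, called RND3 and THBS1 as higher and FSTL1 and TNS3 as lower, and gave no adjusted p for EDN1, INHBA and CAVIN2.

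**Figure D1:**
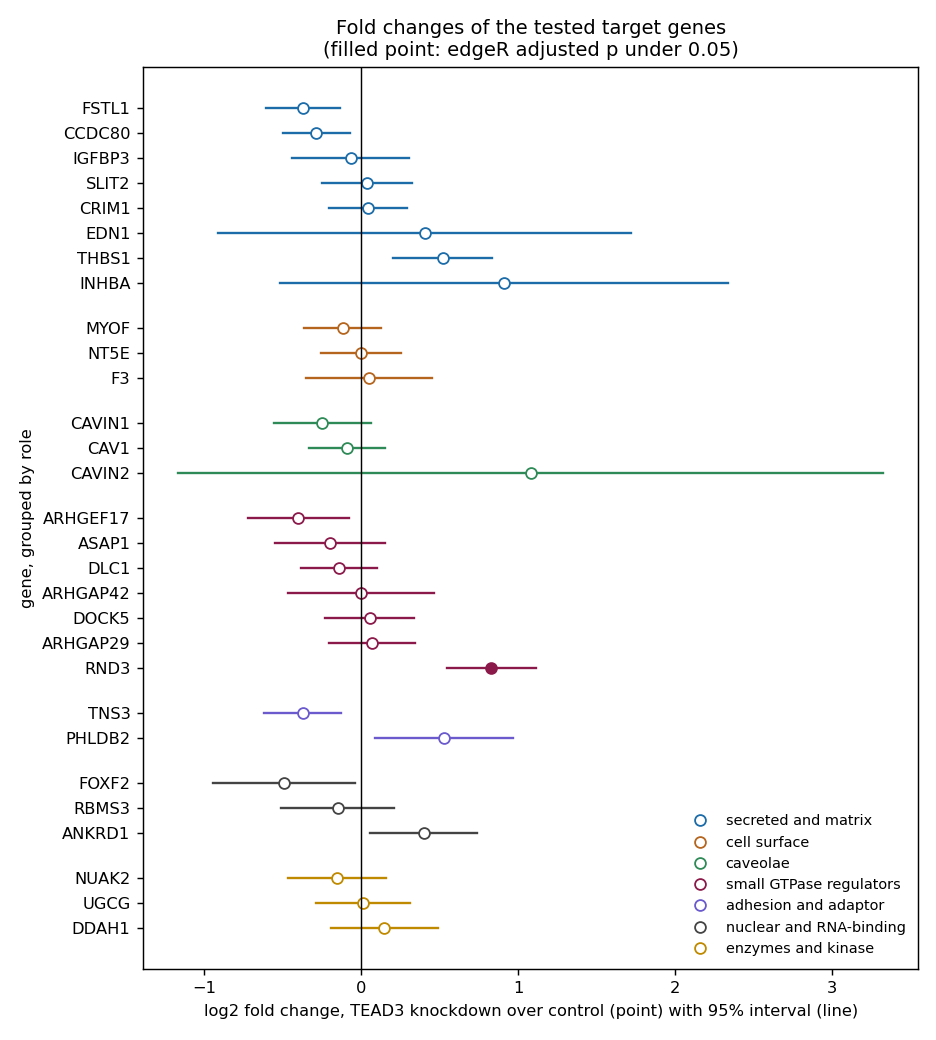
Each row is 1 of the 29 tested target genes, grouped by role. The horizontal axis is the log2 fold change of the knockdown over the control, with the edgeR estimate as a point and its 95% interval as a line. RND3 at 0.83 is the single filled point, the mark of an edgeR-adjusted p under 0.05, and 15 points lie below 0.

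Regulators of small GTPases, the switches that set actin tension and cell shape, make up 7 of the 31. All were tested, RND3 rose and 6 were not called. RND3 (ENSG00000115963, GRCh38 chromosome 2, 150468195 to 150539011, minus strand) encodes RhoE, an atypical small GTPase that does not hydrolyse GTP and opposes RhoA and ROCK1 signalling. RND3 measured 77.9, 62.5 and 77.6 CPM across the controls. It measured 127, 112 and 148 CPM across the knockdown libraries. The lowest knockdown library thus lay above the highest control, and control replicate 2 was the lowest control. Its control mean of 72.7 ± 8.78 CPM compared with a knockdown mean of 129 ± 18.1 CPM (SD, n = 3 each), a 1.78-fold difference (log2 fold change 0.83, SE 0.129, 95% interval 0.55 to 1.11, edgeR's adjusted p = 0.0182). RND3 kept this direction in all 15 alternative analyses, between 0.72 and 0.92, and was called in 10 of them. Its edgeR call was lost without control replicate 3 (adjusted p = 0.0746), without knockdown replicate 1 (0.101) or 3 (0.142), without the low-count filter (0.0844) and with the covariate for non-polyadenylated RNA (0.16).

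ARHGEF17 encodes a guanine nucleotide exchange factor that activates RhoA. It measured 48.6, 71.4 and 58.5 CPM across the controls against 40.1, 50.6 and 44.4 CPM across the knockdown libraries. Knockdown replicate 2 lay above control replicate 1, so the groups overlapped. The log2 fold change was -0.40 (SE 0.147, edgeR's adjusted p = 0.23), and edgeR called it with the length and GC correction (-0.36, adjusted p = 0.0399). DLC1 encodes a GTPase-activating protein that switches RhoA off. Its levels were 25.9, 26.0 and 24.4 CPM across the controls against 21.7, 24.4 and 23.0 CPM across the knockdown libraries (-0.14, edgeR's adjusted p = 0.594). Control replicate 3 and knockdown replicate 2 of DLC1 were nearly level, and the other libraries of each group lay apart.

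The remaining 4 members of the group had 95% intervals that included 0, as did DLC1 (-0.39 to 0.10). ARHGAP29, a GTPase-activating protein, measured 144, 101 and 121 CPM across the controls against 126, 128 and 130 CPM across the knockdown libraries (log2 fold change 0.07). The 3 knockdown libraries lay close together inside the control range. ARHGAP42, another GTPase-activating protein, was at 7.59 ± 1.98 CPM in controls and 7.58 ± 0.791 CPM after the knockdown, a log2 fold change of -0.0021 with a 95% interval from -0.47 to 0.46. DOCK5, an exchange factor for Rac, was at 0.05, and ASAP1, an Arf GTPase-activating protein of focal adhesions and podosomes, at -0.20. For ASAP1 the controls measured 142, 105 and 160 CPM and the knockdown libraries 101, 139 and 114 CPM, so the ranges of the groups overlapped. The smallest edgeR-adjusted p among these 4 genes was 0.604, in ASAP1. Exons of ARHGEF17 and ARHGAP42 overlap antisense genes, and no source used here gives the strand setting of the counting, so their counts are uncertain.

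Secreted and matrix proteins are the products through which YAP and TAZ act on neighbouring cells. All 8 of these genes were tested and none was called. The better expressed ones lay on both sides of 0. THBS1 encodes thrombospondin-1, a matrix glycoprotein that activates latent TGF-beta and restrains blood vessel growth. It measured 56.3, 46.7 and 69.3 CPM across the controls against 73.3, 88.7 and 84.8 CPM across the knockdown libraries. All knockdown libraries lay above all controls, with knockdown replicate 1 close to control replicate 3. Its control mean was 57.4 ± 11.3 CPM and its knockdown mean 82.3 ± 8.01 CPM, a 1.43-fold difference that edgeR did not call (log2 fold change 0.52, SE 0.143, 95% interval 0.20 to 0.83, adjusted p = 0.127). DESeq2 called it (adjusted p = 0.0112), as did edgeR with the length and GC correction (0.62, adjusted p = 0.0186). Exons of THBS1 overlap FSIP1 and THBS1-AS1 on the opposite strand.

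FSTL1, a secreted follistatin-like glycoprotein, and CCDC80, a matrix protein, lay on the other side. FSTL1 measured 125, 101 and 120 CPM across the controls. Across the knockdown libraries it measured 88.9, 93.7 and 84.6 CPM. The groups did not overlap, and control replicate 2 was nearest to the knockdown libraries. The log2 fold change was -0.37 (SE 0.107, edgeR's adjusted p = 0.142), called by DESeq2 (adjusted p = 0.0277), by edgeR after correction for length and GC content (-0.30, 0.044) and by edgeR without control replicate 2 (-0.46, 0.0278). FSTL1 exons overlap MIR198 on the same strand and BTNL12P on the other. CCDC80 measured 287, 258 and 245 CPM across the controls against 205, 221 and 222 CPM across the knockdown libraries, also without overlap. Its difference was the smallest of the 8 genes whose groups did not overlap (log2 fold change -0.29, SE 0.0971, edgeR's adjusted p = 0.198), and no alternative called it.

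INHBA, the subunit of activin A, and EDN1, the vasoconstrictor endothelin-1, were close to the floor of detection. INHBA measured 0.274, 0.458 and 0.20 CPM across the controls against 0.401, 0.281 and 1.07 CPM across the knockdown libraries. Knockdown replicate 3, with 70 counts against 12 to 26 in all other libraries, stood alone above the rest. Its log2 fold change of 0.91 therefore carried an SE of 0.649 (edgeR's adjusted p = 0.548), and with the covariate for non-polyadenylated RNA the log2 fold change was 0.04. EDN1 had between 10 and 36 counts in each library and a log2 fold change of 0.40 (SE 0.60, edgeR's adjusted p = 0.812). SLIT2, an axon guidance ligand, IGFBP3, a carrier of insulin-like growth factors, and CRIM1, a membrane protein that binds BMPs, had log2 fold changes of 0.04, -0.07 and 0.04. Their 95% intervals reached from -0.25 to 0.33, from -0.44 to 0.30 and from -0.20 to 0.29.

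**Figure D2:**
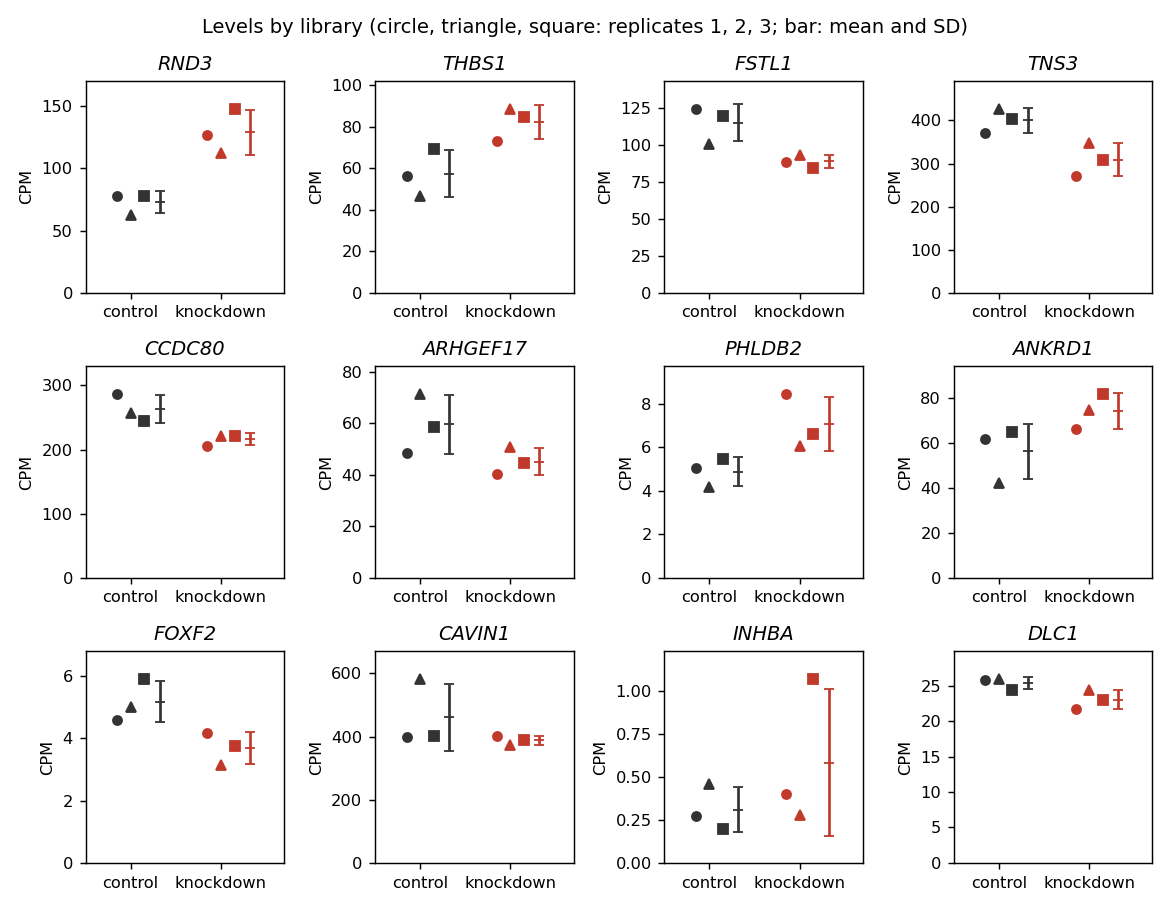
Each panel is a gene, with CPM on a vertical axis that starts at 0 and 1 symbol for each of the 3 control and 3 knockdown libraries (circle, triangle and square for replicates 1, 2 and 3), and the mean with its SD beside them. RND3 shows a gap between groups, from 77.9 CPM in the highest control to 112 CPM in the lowest knockdown library, and CAVIN1 shows control replicate 2 at 583 CPM above all other libraries.

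Caveolae are small pits of the plasma membrane built from caveolins and cavins that flatten under tension. None of the 3 caveolar genes was called. CAVIN1, the cavin that coats every caveola, measured 398, 583 and 402 CPM across the controls against 402, 374 and 389 CPM across the knockdown libraries. Control replicate 2 alone lay apart, and the other 5 libraries shared 1 range. The log2 fold change of -0.25 (SE 0.141, edgeR's adjusted p = 0.435) was -0.05 without control replicate 2. CAV1, the main structural caveolin, measured 282, 224 and 273 CPM across the controls against 228, 247 and 256 CPM across the knockdown libraries, with the lowest value in control replicate 2 (-0.09, edgeR's adjusted p = 0.759). CAVIN2 had between 0 and 28 counts in a library, and the interval of its log2 fold change ran from -1.17 to 3.33, so nothing can be read from it.

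Cell-surface targets differed by less than the spread between libraries. F3 encodes tissue factor, which starts blood clotting, and had means of 9.70 ± 1.92 CPM in controls and 10.0 ± 1.23 CPM after the knockdown. NT5E encodes CD73, the ectoenzyme that makes adenosine from AMP. NT5E measured 24.3, 23.2 and 27.6 CPM across the controls against 24.0, 26.4 and 24.6 CPM across the knockdown libraries, a log2 fold change of -0.0018 with a 95% interval from -0.26 to 0.26. MYOF, the membrane repair protein myoferlin, had a control mean of 308 ± 31.4 CPM and a knockdown mean of 284 ± 28.9 CPM (-0.12 on the log2 scale, edgeR's adjusted p = 0.674).

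Adhesion and adaptor genes held 2 tested members, neither called. TNS3 encodes tensin-3, which ties integrins to actin. TNS3 measured 370, 428 and 403 CPM across the controls against 272, 348 and 308 CPM across the knockdown libraries. The highest knockdown library stayed below the lowest control (log2 fold change -0.37, SE 0.112, edgeR's adjusted p = 0.156, DESeq2 adjusted p = 0.0316). PHLDB2 encodes LL5-beta, which anchors microtubule ends at the cell cortex near focal adhesions. It measured 5.05, 4.16 and 5.44 CPM across the controls against 8.46, 6.07 and 6.63 CPM across the knockdown libraries, again without overlap but on the higher side (0.53, SE 0.20, edgeR's adjusted p = 0.24). Exons of PHLDB2 overlap PLCXD2 on the same strand, which makes its counts uncertain. SH2D4A, an adaptor with an SH2 domain, had 7 to 8 counts in the controls and 9 to 13 in the knockdown, and was not tested.

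Nuclear and RNA-binding members were led by ANKRD1, an ankyrin repeat protein of the nucleus and sarcomere whose transcript is a standard readout of YAP activity. ANKRD1 measured 61.9, 42.3 and 64.7 CPM across the controls. Across the knockdown libraries it measured 66.0, 74.7 and 81.8 CPM. The groups did not overlap, yet control replicate 3 and knockdown replicate 1 differed by little and control replicate 2 was far below both. ANKRD1 was not called by edgeR (log2 fold change 0.40, SE 0.156, 95% interval 0.06 to 0.74, adjusted p = 0.255), DESeq2 (adjusted p = 0.0999) or any other alternative. Without control replicate 2 its log2 fold change was 0.23.

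FOXF2, a forkhead transcription factor of mesenchymal cells, measured 4.60, 5.02 and 5.91 CPM across the controls against 4.16, 3.14 and 3.75 CPM across the knockdown libraries. Its groups did not overlap and the difference was not called (log2 fold change -0.49, SE 0.205, edgeR's adjusted p = 0.282). Of the 7 genes with GGAATG in a promoter, THBS1, ANKRD1, CAVIN2, EDN1 and DDAH1 were above 0, and FOXF2 and NUAK2 below. None of these genes was called, and CAVIN2 and EDN1 had few counts. The 3 printed above were picked by their p in this same comparison. Any link between motif and direction was not tested. RBMS3, an RNA-binding protein, had a control mean of 10.9 ± 0.577 CPM and a knockdown mean of 9.82 ± 1.6 CPM (log2 difference -0.15, edgeR's adjusted p = 0.719). GLI2, a transcription factor of the Hedgehog pathway, had 0, 0 and 4 counts across the controls against 3, 12 and 7 counts across the knockdown libraries, and was not tested.

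Of the enzymes, NUAK2, an AMPK-related kinase that feeds back on YAP, measured 20.7, 27.7 and 21.9 CPM across the controls against 18.7, 22.6 and 21.8 CPM across the knockdown libraries. The 2 groups overlapped apart from control replicate 2 (log2 fold change -0.15, edgeR's adjusted p = 0.665). DDAH1 degrades methylated arginines that inhibit nitric oxide synthase, and its log2 fold change was 0.15 (edgeR's adjusted p = 0.71). UGCG, the first enzyme of glucosylceramide synthesis, had a control mean of 19.4 ± 2.97 CPM and a knockdown mean of 19.6 ± 0.581 CPM (log2 fold change 0.01, 95% interval -0.29 to 0.31).

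Levels between genes were compared only after division by the annotated exon length, as CPM per kilobase. On this scale the caveolar genes CAVIN1 and CAV1 were the most abundant of the 31 in controls, at 120 ± 27.5 and 63.5 ± 7.67 CPM per kilobase. Their control libraries did not overlap with each other or with the next gene, MYOF at 36.3 ± 3.71. MYOF, TNS3 (33.9 ± 2.44) and ANKRD1 (28.4 ± 6.17) followed, and the libraries of neighbours in this stretch overlapped, as they did for 20 of the 30 neighbouring pairs in the whole order. RND3 stood at rank 6 in the controls with 20.2 ± 2.44 CPM per kilobase and at rank 4 in the knockdown with 35.9 ± 5.03, beside ANKRD1 at 37.5 ± 3.99. THBS1 went from rank 14 to rank 11, from 6.27 ± 1.24 to 8.98 ± 0.875 CPM per kilobase. At the low end EDN1, CAVIN2, INHBA, SH2D4A and GLI2 had a control mean under 1 CPM. U251 cells in these libraries thus carried little transcript of these 5 genes in either group, whereas 26 of the 31 had a control mean of at least 1 CPM.

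**Figure D3:**
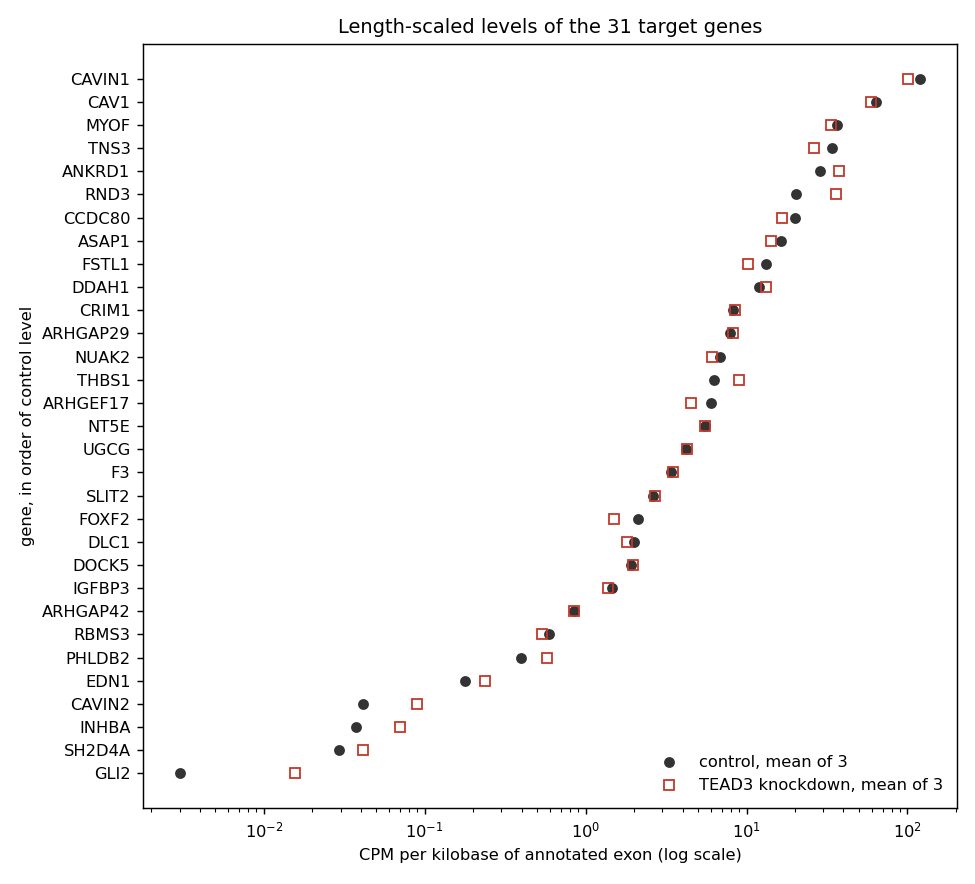
The 31 target genes are listed in order of their control level, with CPM per kilobase of annotated exon on a log axis. Filled circles are control means and open squares knockdown means (3 libraries each), from CAVIN1 at 120 down to GLI2 at 0.003 in controls.

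The spread among control libraries had a pattern of its own in these genes. Of the 26 with a control mean of at least 1 CPM, 18 had their lowest control level in replicate 2, 5 had their highest there and 3 lay between. All 18 belonged to the 21 genes with a transcript GC content of at most 50%, such as ARHGAP42, DDAH1 and ANKRD1, where replicate 2 was below the mean of replicates 1 and 3 by log2 differences of -0.69, -0.63 and -0.58. Of the 5 genes above 50% GC, CAVIN1, ARHGEF17, NUAK2 and TNS3 had their highest control in replicate 2, at log2 differences of 0.54, 0.42, 0.38 and 0.15, and FOXF2 at -0.05 was the exception. Among the 21 genes of lower GC content DLC1 had its highest control in replicate 2, at a log2 difference of 0.05, and in CCDC80 and SLIT2 replicate 2 lay between the other controls. Across the 26 genes, which share these libraries and are not independent, GC content and this difference had a Pearson correlation of 0.741 and a Spearman correlation of 0.617. Leaving out control replicate 2 moved the median log2 fold change of the target genes to -0.06, beside 0.0029 over all genes. Below 0 were then 21 of 30 tested target genes, against 15 of 29 in the main fit. Leaving out control replicate 3 moved the median the other way, to 0.066, with 13 of 30 below 0. The part of GC content in the fold changes of single genes was not tested beyond the length and GC correction, which called 3.18% of all genes and under which RND3 and THBS1 were called as higher and FSTL1 and ARHGEF17 as lower.

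**Figure D4:**
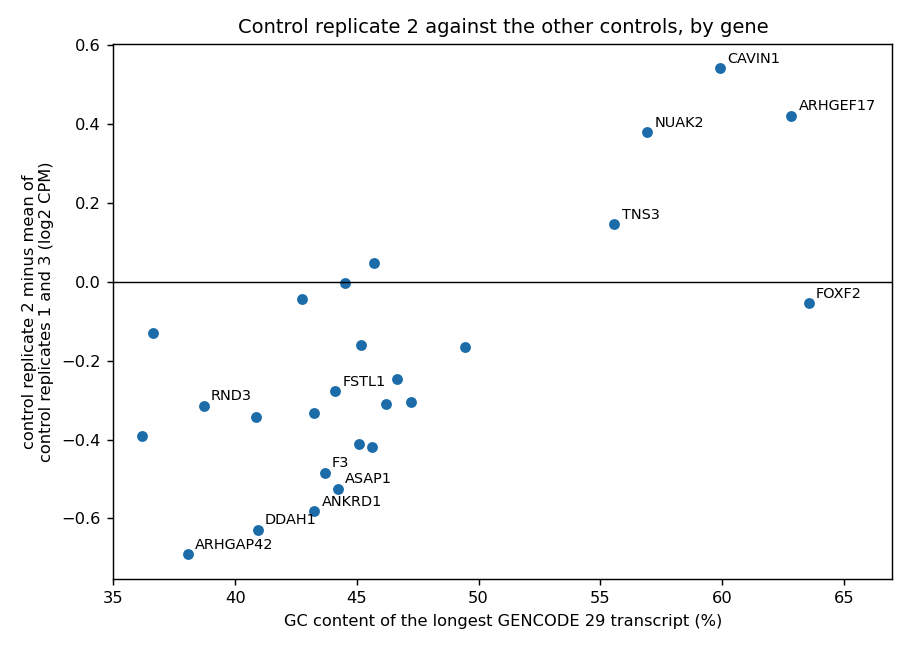
Each point is 1 of 26 target genes with a control mean of at least 1 CPM. The horizontal axis is the GC content of the longest GENCODE 29 transcript in percent and the vertical axis the log2 difference of control replicate 2 from the mean of control replicates 1 and 3. Of the 21 genes at or below 50% GC all but DLC1 (0.05) lie below 0, down to -0.69 for ARHGAP42, and 4 of the 5 genes above 50% lie above it, up to 0.54 for CAVIN1.

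Other pathway genes were counted in 2 lists. Of 22 further YAP/TAZ-TEAD targets, among them the CCN genes, 21 were tested. CCN2 rose (log2 fold change 0.87, edgeR's adjusted p = 0.0137), the receptor tyrosine kinase gene AXL fell (-1.04, 0.00646) and 19 were not called. Each call is 1 of 21, or 4.76%, where edgeR called 0.451% of all tested genes as higher and 0.203% as lower. Control and knockdown values did not overlap for 10 of the 21 (47.6%), against 21.6% of all tested genes. The median of this list was 0.13, with 12 above 0 and 9 below. Before adjustment 5 on the higher side (23.8%) and 2 on the lower side (9.52%) had an edgeR p under 0.05. Over all tested genes these shares were 8.15% and 7.43%. Of 10 TEAD factors and cofactors, VGLL1 was at 0 in every library and 9 were tested, of which TEAD3 fell and 8 were not called. The list median was -0.23, with 6 of 9 below 0, among them TEAD3, the gene targeted. Over all tested genes 50.2% were below 0. An unadjusted edgeR p under 0.05 was reached by 1 on the higher side (11.1%) and 3 on the lower side (33.3%), TEAD3 included. Any shift of this list as a whole was not tested.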

How the data were processed

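The authors deposited whole-number counts per Ensembl gene, 1 column for each of 3 control and 3 knockdown libraries, with no scaling. The submitters' processing notes list GRCh38, HISAT2 2.0.4, cutadapt 1.9, edgeR, DESeq2 and StringTie 1.3.4d. The tool that wrote the counts, its annotation and its strand setting: not given in the sources used here. Symbols matched 60588 of 60612 identifiers. Positions, exon lengths, GC content and overlaps came from GENCODE 29 (GRCh38).

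The main test was the two-sided quasi-likelihood test in edgeR 4.0.16 (R 4.3.3) with TMM scaling, group as the only term and filterByExpr at 10 counts, which kept 17723 of 29520 genes with a count. It was checked on counts simulated independently for each gene and library. The simulation held no GC or length trend, so it cannot show how the test behaves under such trends. SE and 95% intervals come from this fit. Alternatives were DESeq2 1.42.0, limma-voom (limma 3.58.1), other scalings and filters (at least 50 counts in each library of a group), a replicate block, each library left out, a per-library loess correction for length and GC content (span 0.3, fitted on 11551 genes), and a covariate for non-polyadenylated RNA. Every pair of libraries differed by more than counting noise, with a chi-square of at least 23.1 per degree of freedom.

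The members, lists and tests were chosen with earlier results of these data known. Among the target genes, levels are given by library for called ones, the 12 with the smallest p, ANKRD1, and any that DESeq2 or the length and GC correction called. CCN2 and AXL, called in another list, are given by fold change and adjusted p only. NUAK2, NT5E, CAV1, ARHGAP29 and ASAP1 were added after their values were seen.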

Additional observations from a re-analysis of the deposited data

How the results depend on the processing

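Over all genes 116 were called. This was 31 without the low-count filter, 210 with the stricter one, 872 by DESeq2, 564 with the length and GC correction, 23 with the covariate for non-polyadenylated RNA, and 20 to 589 with a library left out. Target genes called as higher numbered 1, against 0 without the filter, 2 by DESeq2, 2 with the length and GC correction, 0 with the covariate, and 0 to 1 with a library left out. Called as lower were 0, against 2 by DESeq2, 2 with the length and GC correction, and 0 to 1 with a library left out. The median of the target genes stayed between -0.065 and 0.066 with a library left out. TEAD3 was not called without the filter (-1.56) or with the covariate (-1.45), and lay between -1.80 and -1.37 with a library left out.

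With the replicate number as a block 63 genes were called, and the target gene calls did not change. Same-numbered libraries shared no deviation (r of 0.0056, -0.017 and 0.0083), and not every library was closest to its own number.

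Of the 29 tested target genes 18 kept their direction throughout. The other 11, none over 0.20 in size and none called, changed sign somewhere. ARHGAP42 was at 2.27e-05 with DESeq2 size factors, 0.00030 with the stricter filter, 0.021 by limma-voom, 0.028 with the replicate block and 0.075 with the covariate. NT5E was at 0.0014 with the stricter filter, 0.00060 by limma-voom, 0.00071 with the replicate block, 0.056 with the length and GC correction and 0.072 with the covariate. With the covariate ASAP1 was at 0.034 and IGFBP3 at 0.022, and with library size alone UGCG was at -0.0017. With a library left out the ranges were -0.055 to 0.20 for ARHGAP29, -0.20 to 0.16 for ARHGAP42, -0.052 to 0.11 for CRIM1, -0.036 to 0.25 for DDAH1, -0.074 to 0.15 for DOCK5, -0.099 to 0.19 for F3, -0.056 to 0.073 for NT5E, -0.054 to 0.16 for SLIT2 and -0.097 to 0.13 for UGCG. The causes were not tested. Depth limits EDN1, INHBA, CAVIN2, GLI2 and SH2D4A, which had 70 counts or fewer in each library.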
